A study of Drosophila melanogaster with 2 samples.

Results

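Of the 3601 reproducible Stat92E peaks on the chromosome arms, 530 (14.7%) ranked high in replicate 3 only. They were the peaks whose best overlapping peak (by 1 bp or more) stood at rank 3603 or better in the list of replicate 3, while the best overlapping peak in the list of replicate 1 stood at a rank worse than 3603 or there was none. Ranks ran from 1 for the strongest signal within each list, and 3603 is the length of the reproducible list, of which 2 peaks on the mitochondrial chromosome were left out. Of the other peaks on the arms, 2380 (66.1%) ranked high in both replicates, 608 (16.9%) in replicate 1 only, and 83 (2.30%) in neither. These sets were selected on the ranks, that is, on the deposited peak signals, so ranks and signals below are descriptions and carry no test.

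The study was a ChIP-seq experiment on whole Drosophila melanogaster embryos aged 0 to 12 h, with males and females pooled. The strain, labelled Stat92E-GFP, carries a transgene for Stat92E with a C-terminal eGFP tag, and the tagged protein was precipitated with an antibody against GFP, although the antibody label names Stat92E. Chromatin was sonicated to 200 to 800 bp. There were 2 biological replicates of this single group, numbered 3 and 1, and no untagged or input sample was analysed here. Whole embryos mix all tissues of those stages, so a peak shows no cell type. With 1 library on each side of every replicate difference, no p-value is given, and the intervals below cover counting error over peaks and not variation between embryo collections. The lists carry no read counts, so the depth behind each peak is unknown.

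Stat92E is the single STAT transcription factor of the fly. Secreted Unpaired ligands bind the receptor Domeless, the Janus kinase Hopscotch phosphorylates Stat92E, and the dimer enters the nucleus and binds palindromes of the form TTC and GAA separated by a short spacer. In the embryo the pathway is known for segment patterning and for the development of the tracheae, posterior spiracles, gut and blood cells.

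The sequences that carry the comparison with the described STAT palindromes are shown first. Each is taken from the RefSeq Release 6 genome (dm6), on the plus strand, and covers up to 50 bases on each side of the peak summit, or a shorter stretch around the site where the summit window lies in an exon. Only 5 of the 530 peaks held the fully symmetrical palindrome TTCCNGGAA, in capitals here, and the 4 printed were near baz (the Par-3 polarity protein), Pex7 (a peroxisomal import receptor), kmr and rasp (an acyltransferase that modifies Hedgehog).
baz, chrX:17171883-17171983: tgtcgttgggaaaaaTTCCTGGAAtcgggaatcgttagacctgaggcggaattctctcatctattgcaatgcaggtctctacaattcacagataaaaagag
Pex7, chr3L:8660349-8660449: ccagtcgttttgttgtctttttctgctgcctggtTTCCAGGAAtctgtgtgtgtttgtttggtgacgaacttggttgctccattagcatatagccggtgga
kmr, chr3R:13731186-13731286: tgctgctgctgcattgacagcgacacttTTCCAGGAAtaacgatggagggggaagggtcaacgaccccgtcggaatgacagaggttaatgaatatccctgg
rasp, chr3L:3162153-3162181: tcgcaatcttTTCCCGGAAtgaagagtcc
The fifth was near psq, which encodes a BTB-domain transcription factor, and its sequence is not printed. The baz and kmr sites lay in introns, the Pex7 site between genes, and the rasp site within 1 kb of the transcription start.

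More of the peaks held the palindrome with a 4-base spacer (TTC, any 4 bases, GAA), and the examples below, with that site in capitals, lay beside genes that return in the results below. E(spl)m4-BFM is a Bearded-family gene of the Enhancer of split complex, upd3 encodes a JAK/STAT ligand, dally a glypican, ems a homeodomain protein of the head and tracheae, and ImpL2 a secreted insulin-binding protein.
E(spl)m4-BFM, chr3R:26026694-26026794: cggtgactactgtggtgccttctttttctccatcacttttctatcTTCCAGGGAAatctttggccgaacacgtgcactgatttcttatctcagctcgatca
upd3, chrX:18282486-18282586: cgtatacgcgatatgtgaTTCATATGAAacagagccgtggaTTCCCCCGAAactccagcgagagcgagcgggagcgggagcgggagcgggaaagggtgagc
dally, chr3L:8824655-8824755: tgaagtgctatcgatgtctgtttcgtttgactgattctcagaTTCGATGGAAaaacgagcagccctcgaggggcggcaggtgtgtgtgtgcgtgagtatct
ems, chr3R:13905836-13905936: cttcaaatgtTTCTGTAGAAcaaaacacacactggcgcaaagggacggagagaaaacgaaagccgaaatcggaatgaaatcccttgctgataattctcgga
ImpL2, chr3L:4221605-4221705: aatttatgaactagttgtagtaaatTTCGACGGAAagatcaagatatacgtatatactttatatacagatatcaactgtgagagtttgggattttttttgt
The upd3 window held 2 such sites, TTCATATGAA and TTCCCCCGAA. The site at E(spl)m4-BFM, TTCCAGGGAA, covered the summit itself.

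Of the 22 peaks with no overlapping peak in replicate 1, 3 held a GA repeat (GAGAGAG or its complement CTCTCTC, in capitals), and these 3 are shown as examples from that group, not as typical of it. The neighbouring genes were bi (a T-box factor), unc-4 (a homeodomain factor) and Antp (a homeotic gene).
bi, chrX:4426988-4427088: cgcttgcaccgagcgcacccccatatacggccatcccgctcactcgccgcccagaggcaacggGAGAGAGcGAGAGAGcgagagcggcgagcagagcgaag
unc-4, chrX:17768361-17768461: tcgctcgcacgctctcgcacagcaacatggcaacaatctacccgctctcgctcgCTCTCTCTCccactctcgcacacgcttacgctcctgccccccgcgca
Antp, chr3R:7000702-7000802: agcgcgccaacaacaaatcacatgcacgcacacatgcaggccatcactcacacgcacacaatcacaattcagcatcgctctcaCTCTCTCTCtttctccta
The last set shows promoters of genes used in most cells, here 2 ribosomal protein genes, with the DNA replication-related element TATCGATA in capitals.
RpS10b, chrX:19597951-19597971: taaTATCGATAtattgccggc
RpL36, chrX:629460-629487: cgtgccttatTATCGATAggcgggcggg

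Within their own list the 530 peaks of replicate 3 had ranks of 51 to 3594 (median 1922), with 240 at rank 1801 or better and 8 at rank 500 or better. In replicate 1, 508 of them had a peak, at ranks of 3604 to 16854 (median 4759), and 22 had none. Most of the 508 stayed within 2 times the threshold in replicate 1, where 452 stood at rank 7206 or better and 56 were worse. A wide gap, with a replicate 3 rank of 1801 or better and a replicate 1 rank worse than 7206 or no peak, was seen at 51 peaks. The mirrored gap was seen at 70 of the replicate-1-only peaks. In all, 4 of the 608 replicate-1-only peaks had no peak in replicate 3. The signals, scores without a stated unit, spanned 55.9 to 235 in replicate 3 (median 72.6) and 28.5 to 73.3 in replicate 1 (median 64.6), and the scales of the lists cannot be compared.

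**Figure D1:**
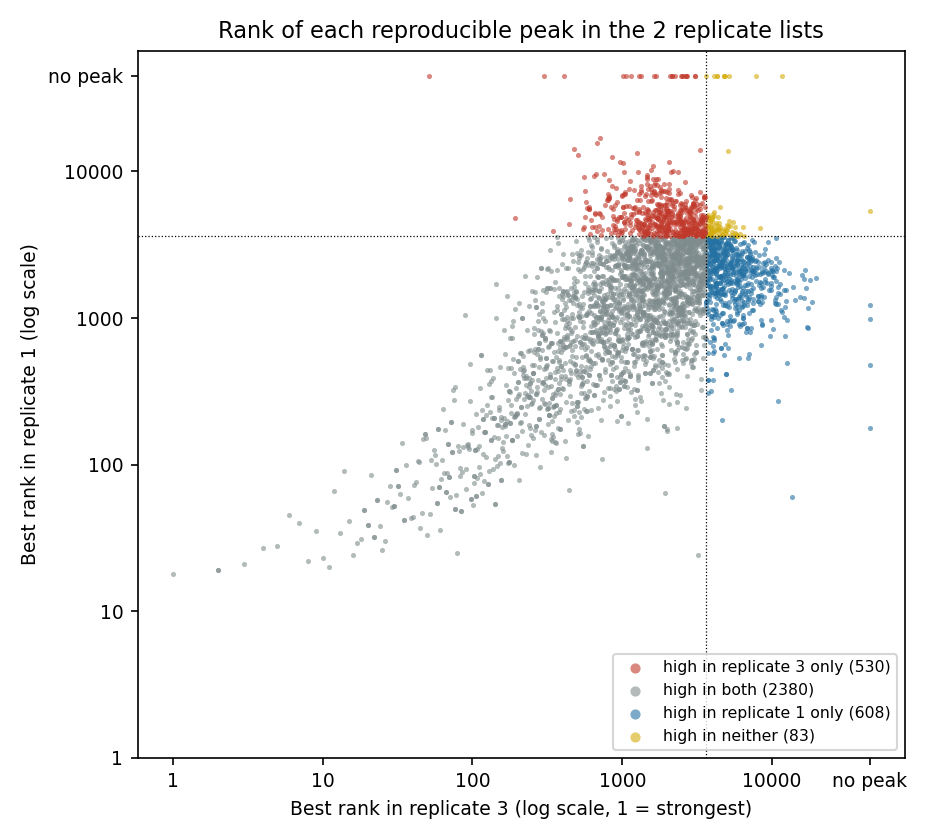
Best rank of each reproducible peak in replicate 3 (horizontal, log scale) against its best rank in replicate 1 (vertical, log scale), with 1 the strongest and dotted lines at rank 3603. The 530 peaks ranked high in replicate 3 only lie left of the vertical line and above the horizontal one, and 22 of them sit on the line marked no peak.

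The pooled rank of a peak is its rank by signal within the reproducible list of 3603 peaks, which derives from both replicates. It is not a rank in the separate pooled list. By pooled rank the 530 peaks stood at 29 to 3603 (median 2846.5). The peaks high in both had a median of 1218.5 and the replicate-1-only peaks a median of 2786.5. The peaks thus came mostly from the weak end of the reproducible list, with 496 at a pooled rank worse than 1801 and 34 at 1801 or better. Because of this, the main comparisons with the peaks high in both were also made among peaks of pooled rank worse than 1801 (496, 672 and 552 peaks of the replicate-3-only, both and replicate-1-only sets), a choice made after seeing the data. This split did not match the sets in strength. Their median pooled ranks were then 2908.5, 2326.5 and 2860 in the same order.

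At the threshold in replicate 3, the last members were near CG8728 at rank 3579, Rgl at 3585 and endos at 3594. Among peaks high in neither replicate, the first outside were near unc-5 at 3605, Vps13D at 3617 and Gcn5 at 3625. At the threshold in replicate 1, the nearest members were beside 18w at rank 3604, Fas3 at 3607 and l(1)G0289 at 3610. The nearest peaks outside were beside CG12096 at rank 3601, Tep4 at 3600 and Reck at 3597. Peaks on either side of a threshold therefore differed by a few ranks.

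A gene named beside a peak is the one whose transcription start site (TSS) lay closest among protein-coding genes, a neighbour and not a shown target. The strongest member in replicate 3 was at cu (FBgn0261808), which encodes the fly nocturnin, in a 346 bp peak at chr3R:11197118-11197463, 325 bp upstream of the TSS. It stood at rank 51 in replicate 3 and had a pooled rank of 29. There was no overlapping peak in replicate 1, where the nearest peak lay 471 bp away at rank 24787. Its summit window was 16.8% GC, the lowest among the 530 and the same as at Eip74EF and Gadd45. Next came Mekk1 (FBgn0024329), a MAP kinase kinase kinase, with an intronic peak of 200 bp at rank 191 in replicate 3 and rank 4785 in replicate 1. CG31612 (FBgn0051612) followed at rank 302 in replicate 3 with no peak in replicate 1, and Rh5 (FBgn0014019), an opsin gene, at rank 343 in replicate 3 and rank 3926 in replicate 1. CG3149 stood at rank 407 in replicate 3 with no overlapping peak in replicate 1, but a replicate 1 peak of rank 321 lay 98 bp away.

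The remaining members of the 10 best-ranked in replicate 3 were at CheA75a, E(spl)m4-BFM, pAbp, RpL23 and kmr. CheA75a, of a chemosensory protein family, had ranks of 441 in replicate 3 and 4375 in replicate 1. E(spl)m4-BFM had ranks of 451 in replicate 3 and 6521 in replicate 1, in a peak 2165 bp upstream of the TSS. The gaps were wider at the promoters of pAbp, the poly(A)-binding protein gene, with rank 473 in replicate 3 and 14169 in replicate 1, and of RpL23, a ribosomal protein gene, with 507 in replicate 3 and 12944 in replicate 1. The kmr promoter peak had ranks of 547 in replicate 3 and 4056 in replicate 1. Of these 10 peaks, 2 had the usual width of 470 bp and 8 were narrower.

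**Figure D2:**
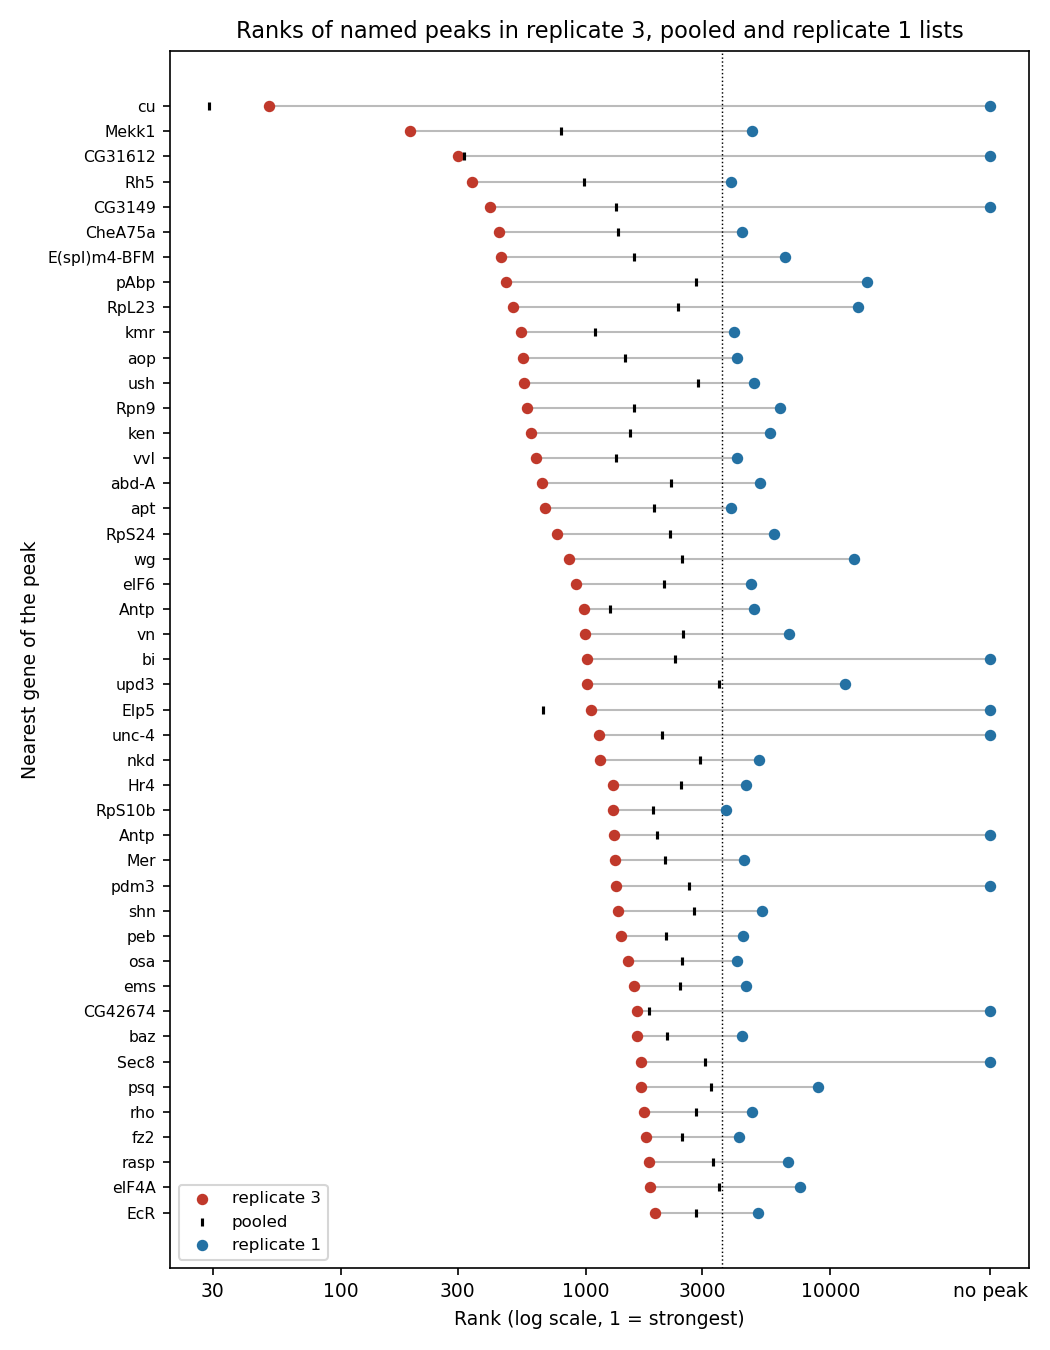
Ranks (log scale, 1 = strongest) of 45 named peaks in replicate 3 (red) and replicate 1 (blue), with the pooled rank (black bar). Each row is 1 peak with its nearest gene, and the dotted line marks rank 3603. Points at the far right had no overlapping peak in replicate 1. For most named peaks the pooled rank, counted among 3603 peaks, lies between the replicate ranks, counted among 30000. At cu and Elp5 the pooled rank is better than the replicate 3 rank.

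The peaks in the reproducible list had a usual width of 470 bp, and 29 members (5.47%) were narrower, against 668 of the peaks high in both (28.1%) and 21 of the replicate-1-only peaks (3.45%). At pooled ranks worse than 1801 the shares were 3.43% of the members (17 of 496) and 4.17% of the both set (28 of 672), a difference of -0.739 points (-2.94 to 1.62), while 12 of the 34 members of better pooled rank (35.3%) were narrow. Narrow peaks high in both also mostly had better pooled ranks, with 28 of the 668 at ranks worse than 1801. Of the 29 narrow members, 26 stood at rank 1801 or better in replicate 3. The narrow members had a median GC of 36.6%, against 42.6% in the members of usual width. The peaks high in both had the same order, 35.6% against 40.6%. In the replicate-1-only set it was reversed, 42.6% at 21 narrow peaks against 40.6%. Width and GC content were looked at after seeing the data.

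The 22 members without a replicate 1 peak had replicate 3 ranks from 51, at cu, to 3065, at frac. The nearest replicate 1 peak lay 98 to 38314 bp away (median 2666 bp), within 1 kb at 4 of them. After cu, CG31612 and CG3149, the next by rank in replicate 3 were at bi (1009), Elp5, an Elongator subunit gene (1053), unc-4 (1137), Antp (1302), pdm3, a POU-domain factor gene (1335), CG42674 (1618), Sec8, an exocyst subunit gene (1677), and ftz-f1, a nuclear receptor gene (2094). The other 11 stood at ranks from 2151, at CG8089, to 3065, at frac. The GC content of their summit windows spanned 16.8%, at cu, to 68.3%, at bi, with a median of 43.6%.

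The 530 peaks lay less often in promoters and more often in introns than the replicate-1-only peaks. A summit within 1 kb of a protein-coding TSS was found at 327 of them, or 61.7% (95% exact interval 57.4 to 65.9%), against 64.5% of the peaks high in both and 72.4% of the replicate-1-only peaks. The difference was -10.7 percentage points from the replicate-1-only peaks (95% Newcombe interval -16.1 to -5.20) and -2.80 points from the peaks high in both (-7.41 to 1.69). Introns outside these promoters held 136 of the 530, or 25.7% (22.0 to 29.6%), against 21.3% of the peaks high in both and 14.8% of the replicate-1-only peaks. That was a difference of 10.9 points from the replicate-1-only peaks (6.19 to 15.5) and 4.40 points from the peaks high in both (0.483 to 8.60). Another 63 (11.9%) were intergenic, against 13.4% of the peaks high in both and 11.5% of the replicate-1-only peaks, and 4 lay in exons outside promoters.

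Among peaks of pooled rank worse than 1801, promoters held 61.7% of the replicate-3-only, 68.3% of the both and 72.8% of the replicate-1-only peaks. The differences were then -6.61 points from the both set (-12.1 to -1.09) and -11.1 points from the replicate-1-only set (-16.7 to -5.45). Introns held 26.4%, 19.8% and 14.7% of these sets, in the same order, with differences of 6.62 (1.75 to 11.6) and 11.7 points (6.86 to 16.6). Among the 78 members with a replicate 1 rank worse than 7206 or no peak, 23.1% were intronic, against 10.8% of the 130 mirrored replicate-1-only peaks, a difference of 12.3 points (2.04 to 23.6). The promoter share of these 78 members was 67.9%, and its difference from the mirrored peaks, -11.3 points, had an interval that held 0 (-23.8 to 0.834). Among the 34 members of pooled rank 1801 or better, 14.7% were intronic, and the intron difference reversed to -7.13 points from the both set and to -1.37 points from the replicate-1-only set, both with intervals that held 0. When the threshold was set 2 times as deep, the intron difference from the peaks high in both reversed to -0.405 points, and the promoter difference from them was 6.47 points (-3.90 to 15.1).

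**Figure D3:**
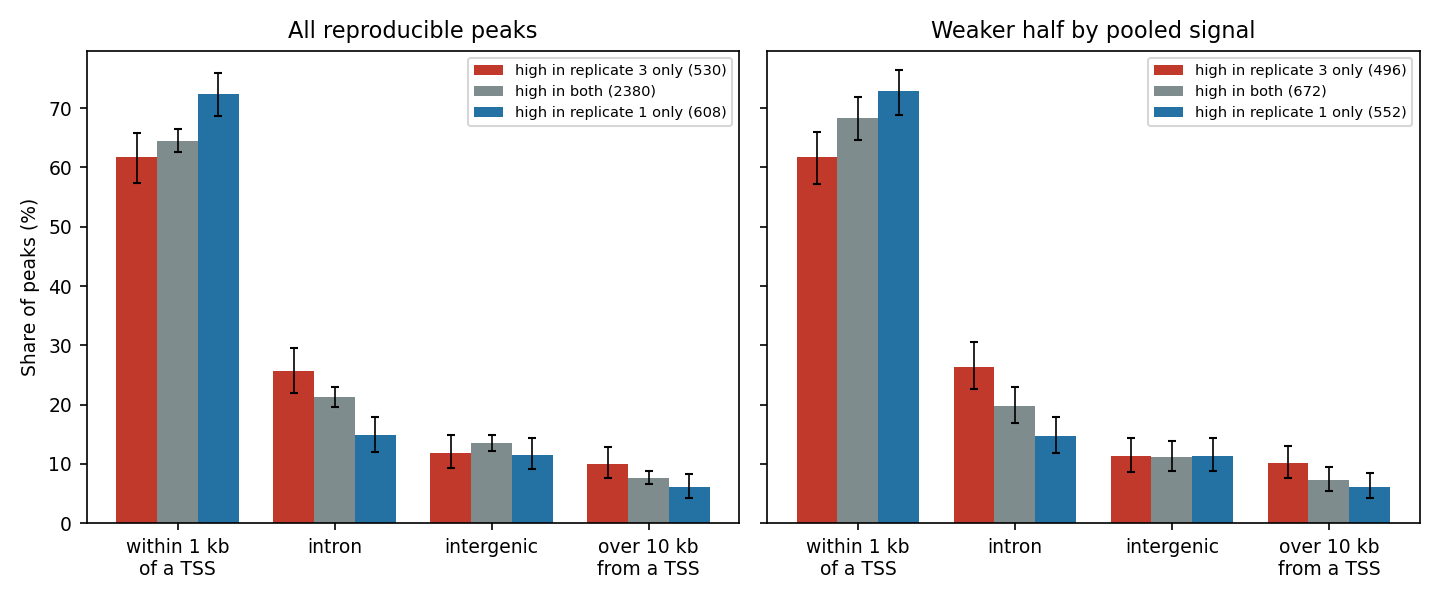
Share of peaks (%) within 1 kb of a TSS, in introns, in intergenic sequence and over 10 kb from a TSS, for peaks high in replicate 3 only (red), both (grey) and replicate 1 only (blue), with 95% exact intervals as bars. The left panel shows all reproducible peaks and the right panel those of pooled rank worse than 1801, where introns held 26.4%, 19.8% and 14.7% of the sets.

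The summits inside any part of a protein-coding gene made up 67.4% of the members, against 60.0% of the peaks high in both (a difference of 7.40 points, 2.86 to 11.7) and 57.6% of the replicate-1-only peaks (9.79 points, 4.15 to 15.3). Among peaks of pooled rank worse than 1801 the difference from the both set was 4.997 points and its interval held 0 (-0.538 to 10.4). More than 10 kb from any protein-coding TSS lay 53 members, and the share exceeded that of the replicate-1-only peaks (6.09%) by 3.91 points (0.758 to 7.20). The median distance to the TSS was 197.5 bp for the members, 220.5 bp for the peaks high in both and 123 bp for the replicate-1-only peaks. Outside promoters the medians were 4714, 4346 and 4555.5 bp in the same order. A tRNA gene lay within 500 bp of 4 members (0.755%), of 46 peaks high in both (1.93%) and of 8 replicate-1-only peaks (1.32%).

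By arm, the members numbered 100 on 2L, 97 on 2R, 125 on 3L, 122 on 3R, 3 on 4 and 83 on X. The X chromosome held 15.7% of them, against 11.4% of the peaks high in both, a difference of 4.23 points (1.09 to 7.79), and 12.7% of the replicate-1-only peaks. Among peaks of pooled rank worse than 1801 the X share was 16.1% for the members and 14.6% for the both set, a difference of 1.55 points (-2.59 to 5.82).

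The members had a close neighbour less often than the peaks high in both, a comparison that the rule itself affects. Each peak takes the best rank of any overlapping replicate peak, so a weak peak beside a strong one can fall into the both set. At pooled ranks worse than 1801, the best ranks in the both set were 22 in replicate 3 and 32 in replicate 1. How much this adds to the differences below was not tested. Another reproducible peak lay within 5 kb of 42.6% of the members, against 56.5% of the peaks high in both (-13.9 points, -18.5 to -9.18) and 43.9% of the replicate-1-only peaks. When the pooled rank was worse than 1801, the shares were 42.1% for the members and 56.8% for the both set (-14.7 points, -20.4 to -8.92). A peak of the same set lay within 5 kb of 10.6% of the members, 47.1% of the peaks high in both and 13.98% of the replicate-1-only peaks, sets that differ in size. Of the 530 members, 8 shared their best replicate 3 peak with another member, as at peb, where 2 members were 281 bp apart, so neighbouring members are not independent. Summits of members lay a median of 22 bp from the summit of the overlapping peak in replicate 3, and 22 bp in replicate 1.

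The summit windows, of 101 bp, had a median GC of 41.6% in the members, 39.6% in the peaks high in both and 40.6% in the replicate-1-only peaks. Control windows 1 kb to one side had medians of 43.6%, 42.6% and 44.6% in the same order. When all reproducible peaks were split into 5 classes of GC, the members made up 11.2% of the lowest (81 of 721 peaks), then 13.2%, 15.1% and 16.9%, and 17.1% of the highest. From lowest to highest, the peaks high in both fell from 72.0% to 62.8%. The replicate-1-only peaks made up 14.8% of the lowest, 18.5% of the middle and 16.9% of the highest. At pooled ranks worse than 1801 the median GC was 42.1% in the members, 41.6% in the both set and 40.6% in the replicate-1-only set. Windows of 55% GC or more were found at 48 members (9.06%), against 6.13% of the peaks high in both, a difference of 2.92 points (0.528 to 5.81). At pooled ranks worse than 1801 this difference was 1.08 points (-2.05 to 4.40).

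The described Stat92E palindrome TTCNNNGAA was searched on both strands, and occurred in the summit window of 30 members, or 5.66% (3.85 to 7.98%). It occurred in 239 peaks high in both (10.04%), 36 replicate-1-only peaks (5.92%) and 8.72% of all 3601 reproducible peaks. The control windows of the members held it at 19, or 3.58%, and those of the peaks high in both at 3.24%. The members were 4.38 points below the peaks high in both (difference -4.38, -6.48 to -1.81) and differed from the replicate-1-only peaks by -0.261 points (-2.99 to 2.55). Among peaks of pooled rank worse than 1801 the share was 6.05% in the members, 5.06% in the both set and 5.80% in the replicate-1-only set, and the difference from the both set turned to 0.989 points (-1.63 to 3.82). Sites were found at 10 of the 327 promoter members (3.06%) and 20 of the 203 other members (9.85%). In the peaks high in both these shares were 6.32% at promoters and 16.8% elsewhere. The sites in the members lay a median of 19.5 bp from the summit, 17 of the 30 within 20 bp.

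The form with a 4-base spacer between TTC and GAA, shown above at upd3 and ems, was found at 42 members, or 7.92% (5.77 to 10.6%). Their control windows held it at 15, or 2.83%. It was found in 6.93% of the peaks high in both, 4.93% of the replicate-1-only peaks and 6.78% of all reproducible peaks. The members differed by 0.992 points from the peaks high in both (-1.29 to 3.77) and by 2.99 points from the replicate-1-only peaks (0.140 to 5.98). Among peaks of pooled rank worse than 1801 the shares were 7.66%, 5.65% and 5.25% for the replicate-3-only, both and replicate-1-only sets, and the difference from the replicate-1-only set, 2.41 points, no longer excluded 0 (-0.577 to 5.51). As with the 3-base form, sites were found at a smaller share of promoter members (19 of 327, 5.81%) than of other members (23 of 203, 11.3%). Either form was present at 68 members (12.8%), against 6.42% of their control windows, 16.2% of the peaks high in both and 10.7% of the replicate-1-only peaks. TTCCNGGAA, which is contained in TTCNNNGAA, was found at 5 members (0.943%), 36 peaks high in both (1.51%) and 3 replicate-1-only peaks (0.493%), and in the control windows of 2 members. With the sites turned outward, as GAANNNTTC, the share was 2.83% in the members and 1.89% in their control windows.

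**Figure D4:**
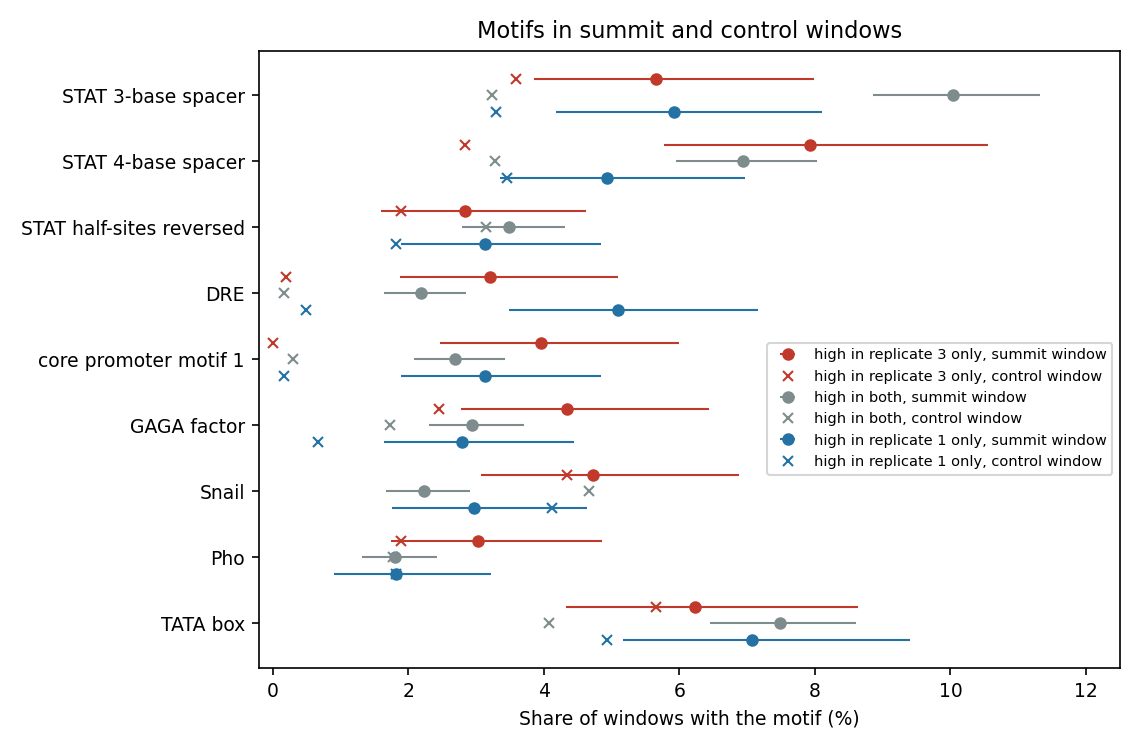
Share of 101 bp windows (%) that hold each motif, at the summit (dots, with 95% exact intervals) and 1 kb away (crosses), for peaks high in replicate 3 only (red), both (grey) and replicate 1 only (blue). The 3-base-spacer STAT palindrome was found at 5.66%, 10.04% and 5.92% of the summits of these sets and the 4-base form at 7.92%, 6.93% and 4.93%.

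Motifs of core promoters and of other factors were searched in the same windows. TATCGATA, the element bound by DREF, was found at 17 members (3.21%), against 1 of their control windows (0.189%), 2.18% of the peaks high in both and 5.10% of the replicate-1-only peaks. GGTCACAC, known as core promoter motif 1, was found at 21 members (3.96%), 2.69% of the peaks high in both and 3.13% of the replicate-1-only peaks. None of the 530 control windows of the members held it, where 3 counts would be a share of 0.566% and the exact 95% interval reaches 0.694%. The GAGA element GAGAGAG was found at 23 members (4.34%), 2.45% of their control windows, 2.94% of the peaks high in both and 2.80% of the replicate-1-only peaks.

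Among motifs of patterning factors, CATTCC, the site of the Hippo-pathway factor Scalloped, was found at 27 members (5.09%), against 3.19% of the peaks high in both (1.90 points, 0.146 to 4.21), and the difference was 2.61 points (0.494 to 5.03) among peaks of pooled rank worse than 1801. GGATTA, the Bicoid site, was found at 5 members (0.943%), against 2.94% of the peaks high in both (-1.998 points, -2.93 to -0.612), and -2.76 points among peaks of pooled rank worse than 1801. CAGGTG, a Snail site, was found at 25 members (4.72%), against 2.23% of the peaks high in both (2.49 points, 0.844 to 4.71), and the difference was 1.51 points (-0.704 to 3.98) among peaks of pooled rank worse than 1801. GCCATNTT, a site of the Polycomb-recruiting factor Pho, was found at 16 members (3.02%), against 1.81% of the peaks high in both (1.21 points, -0.0954 to 3.10). Outside promoters it was found at 9 members (4.43%), against 0.947% of such peaks high in both (3.49 points, 1.21 to 7.29), a value singled out after it was seen and not part of the count of motifs that follows. Of 36 motif shares compared, the interval excluded 0 for 6 against the peaks high in both and for 2 against the replicate-1-only peaks, and for 3 and 0 among peaks of pooled rank worse than 1801. Between the replicate-1-only peaks and the peaks high in both it excluded 0 for 5 of the 36, so such a number is not particular to the members. In the control windows of all members, CATTCC stood at 4.15%, GGATTA at 3.96%, CAGGTG at 4.34% and GCCATNTT at 1.89%, and in those of the peaks high in both CATTCC stood at 4.24%, GGATTA at 2.56% and CAGGTG at 4.66%. At the members, CATTCC and CAGGTG thus differed by less than 1 point between summit and control windows, and GGATTA was more frequent in the control windows. Of all 3601 summit windows, 3.64% held CATTCC, 2.42% GGATTA, 2.72% CAGGTG, 2.03% GCCATNTT, 2.89% TATCGATA, 3.03% GGTCACAC and 3.11% GAGAGAG. The intervals were not adjusted for the number of motifs. A match is a run of letters in a window and not a shown binding site.

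The 530 members were nearest to 494 genes, or 3.54% of the 13945 protein-coding genes. A peak high in both was nearest to 12.2% of the genes and a replicate-1-only peak to 4.06%. Of the 494 genes, 138 (27.9%) also had a peak high in both, 52 also had a replicate-1-only peak, and 341 had neither. Of the 566 genes with a replicate-1-only peak, 154 (27.2%) also had a peak high in both. With 3 members each, 5 genes stood out, namely Dyrk2 (a protein kinase), Tom (a Bearded-family gene), Antp, Fas3 (a homophilic adhesion protein) and pico (a lamellipodin-family adaptor). The peaks of Fas3, all intronic, had replicate 3 ranks of 1666, 1804 and 1837 and replicate 1 ranks of 5433, 5185 and 3607. Those of Dyrk2 had replicate 3 ranks of 1029, 1862 and 3518 and replicate 1 ranks of 9921, 3930 and 6778. Those of Tom had replicate 3 ranks of 582, 3050 and 3324 and replicate 1 ranks of 5656, 4022 and 5865. At pico the replicate 3 ranks were 1195, 1474 and 2115 and the replicate 1 ranks 7520, 3788 and 4534. In these 4 genes the best replicate 3 rank and the best replicate 1 rank fell on different peaks. At Antp they fell on the same peak, at 985 in replicate 3 and 4867 in replicate 1. A further 26 genes had 2 members. The counts in gene lists below are descriptions beside these backgrounds, and lists of developmental genes also held many peaks high in both.

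Of 14 JAK/STAT pathway genes, 2 had a member, 5 a peak high in both and 1 a replicate-1-only peak. At upd3 (FBgn0053542), whose product is a ligand of Domeless, the intronic member lay 5303 bp downstream of the TSS. It had ranks of 1016 in replicate 3 and 11479 in replicate 1, and a pooled rank of 3506. The gene ken (FBgn0011236) encodes a repressor that acts on part of the Stat92E targets. Its intronic member had ranks of 598 in replicate 3 and 5691 in replicate 1, and a pooled rank of 1522. Both genes lacked a peak high in both, as did most of the 494 genes with a member. When a peak was given to every gene whose body or 5 kb around it held the summit, 6 of the 14 had a member. Under that assignment 9.70% of all protein-coding genes had one.

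Among the 31 described JAK/STAT target genes, 10 (32.3%) had a member, against 20 with a peak high in both and 6 with a replicate-1-only peak. Only 2 of the 10 lacked a peak high in both, where 27.9% of all genes with a member had one. In replicate 3 the best-ranked were at ken, vvl, apt and wg. The vvl peak (a POU-domain factor of the tracheae) lay 79 bp upstream of the TSS, with ranks of 626 in replicate 3 and 4171 in replicate 1, and the apt peak (a bZIP factor) 67 bp upstream, with ranks of 683 in replicate 3 and 3918 in replicate 1. The wg peak (the Wingless ligand), 156 bp upstream in a window of 62.4% GC, had ranks of 857 in replicate 3 and 12445 in replicate 1, the widest gap of these. Antp, pnt (an ETS factor), eya (a phosphatase and transcriptional cofactor), ImpL2, trh (a bHLH-PAS factor of the tracheae) and zfh1 (a zinc-finger homeodomain factor) completed the 10. The ImpL2 peak whose site is printed above was in an intron and had ranks of 3431 in replicate 3 and 4733 in replicate 1.

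Tracheal and posterior spiracle genes gave a share of 6 of 15 (40%), the highest of the lists, with 10 of 15 having a peak high in both and 3 a replicate-1-only peak. Besides vvl and trh these were ems, pyd (a junction protein), grn (a GATA factor) and rho (a protease that releases EGF ligands). The ems peak had ranks of 1575 in replicate 3 and 4518 in replicate 1, and the rho promoter peak 1727 in replicate 3 and 4791 in replicate 1. Of 14 hemocyte genes, 4 had a member, 3 a peak high in both and 3 a replicate-1-only peak. These 4 were peb (a zinc-finger factor), gcm2 (a glial cells missing factor), ush (a FOG-family cofactor) and zfh1. The ush promoter peak had ranks of 560 in replicate 3 and 4885 in replicate 1.

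In the Wingless list 5 of 24 genes had a member, against 10 with a peak high in both and 5 with a replicate-1-only peak. They covered ligands (wg and Wnt6), a receptor (fz2), and antagonists (nkd, and Notum, a secreted deacylase). The fz2 member was intronic, with ranks of 1758 in replicate 3 and 4221 in replicate 1, and the nkd member had ranks of 1146 in replicate 3 and 5101 in replicate 1. In the Hedgehog list 3 of 15 genes had a member, namely the glypicans dally and dlp and the acyltransferase gene rasp, against 5 with a peak high in both and 0 with a replicate-1-only peak. The dally peak whose site is printed above had ranks of 2021 in replicate 3 and 5361 in replicate 1, and the rasp peak 1814 in replicate 3 and 6738 in replicate 1. In the EGF and FGF list 4 of 22 genes had a member, against 13 and 1 genes with a peak high in both and in replicate 1 only. These were aop (the ETS repressor Yan), vn (a neuregulin-like ligand), pnt and rho. The aop promoter peak had ranks of 557 in replicate 3 and 4164 in replicate 1, and the vn promoter peak 993 in replicate 3 and 6762 in replicate 1. In the Dpp list shn (a zinc-finger effector) and sog (a Chordin-type antagonist) had a member, 2 of 18 genes, against 8 with a peak high in both and 2 with a replicate-1-only peak.

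No member was nearest to any of 19 Notch pathway genes, beside 3.54% of all protein-coding genes with a member. A count of 0 in so short a list is not far from that share. Of the 19, 10 had a peak high in both and 6 a replicate-1-only peak. With the wider assignment, by gene body or 5 kb around it, 6 of the 19 had a member, beside 9.70% of all protein-coding genes. E(spl)m4-BFM and Tom, both of the Bearded family, were not in that list, though it held E(spl)malpha-BFM of the same family.

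Lists of patterning and cell fate genes held 1 to 5 genes with a member. Homeotic genes had 3 of 11 (Antp, abd-A and tsh), against 4 with a peak high in both and 2 with a replicate-1-only peak. The abd-A peak, in an intron, had ranks of 662 in replicate 3 and 5153 in replicate 1. The 3 peaks of Antp had replicate 3 ranks of 985, 1302 and 1793, and replicate 1 ranks of 4867, none and 5069. Dorsal-ventral genes had 5 of 20 (peb, sim, rho, ush and sog), against 7 with a peak high in both and 3 with a replicate-1-only peak. Of the 5, 4 lacked a peak high in both, where 27.9% of all genes with a member had one. Gap and terminal genes had 2 of 14 (ems and oc), with 2 in each of the other sets. Pair-rule and segment polarity genes had 1 of 16 (mid), against 7 with a peak high in both and 1 with a replicate-1-only peak. Mesoderm and muscle genes had 2 of 22 (kirre, a fusion protein, and zfh1), and neural fate genes 2 of 25 (grh and gcm2). In the same order, 7 and 8 genes of these lists had a peak high in both, and 4 and 1 a replicate-1-only peak. Genes of the ecdysone response and nuclear receptors had 4 of 16 (Hr4, Eip74EF, EcR and ftz-f1), against 8 with a peak high in both and 2 with a replicate-1-only peak. The Hr4 member had ranks of 1294 in replicate 3 and 4511 in replicate 1, and the EcR member 1916 in replicate 3 and 5044 in replicate 1.

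Of genes used in most cells, 7 of 92 cytoplasmic ribosomal protein genes had a member, against 43 with a peak high in both and 6 with a replicate-1-only peak. All 7 lacked a peak high in both, as did most genes with a member, of which 138 of 494 (27.9%) had one. RpL23 had the widest gap of the 3 with the best replicate 3 ranks, given above, while RpS24 had ranks of 763 in replicate 3 and 5887 in replicate 1 and RpS10b 1297 in replicate 3 and 3766 in replicate 1. Translation factors had 3 of 52 (eIF6, eIF3h and eIF4A), against 12 with a peak high in both and 3 with a replicate-1-only peak. The proteasome list had 1 of 48 (Rpn9, a lid subunit), with ranks of 575 in replicate 3 and 6202 in replicate 1, against 3 with a peak high in both and 5 with a replicate-1-only peak. Cell cycle (CycB3 and Dp), chromatin (Psc and osa), epithelial polarity (baz and sdt) and Hippo, Fat and Dachsous genes (Mer and ex) had 2 each, of 21, 24, 18 and 15. In the same order, 7, 11, 9 and 5 genes of these lists had a peak high in both, and 2, 4, 1 and 1 a replicate-1-only peak. No member was nearest to any of 73 mitochondrial ribosomal protein, 117 cuticle protein or 179 chemosensory receptor genes, nor to any gene of the heat shock, gut, cell death and germline lists. With the wider assignment, which gave a member to 9.70% of all protein-coding genes, 5 mitochondrial ribosomal protein, 1 cuticle protein and 5 chemosensory receptor genes had one. So did 1 cell death and 1 germline gene, and the heat shock and gut lists stayed at 0.

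**Figure D5:**
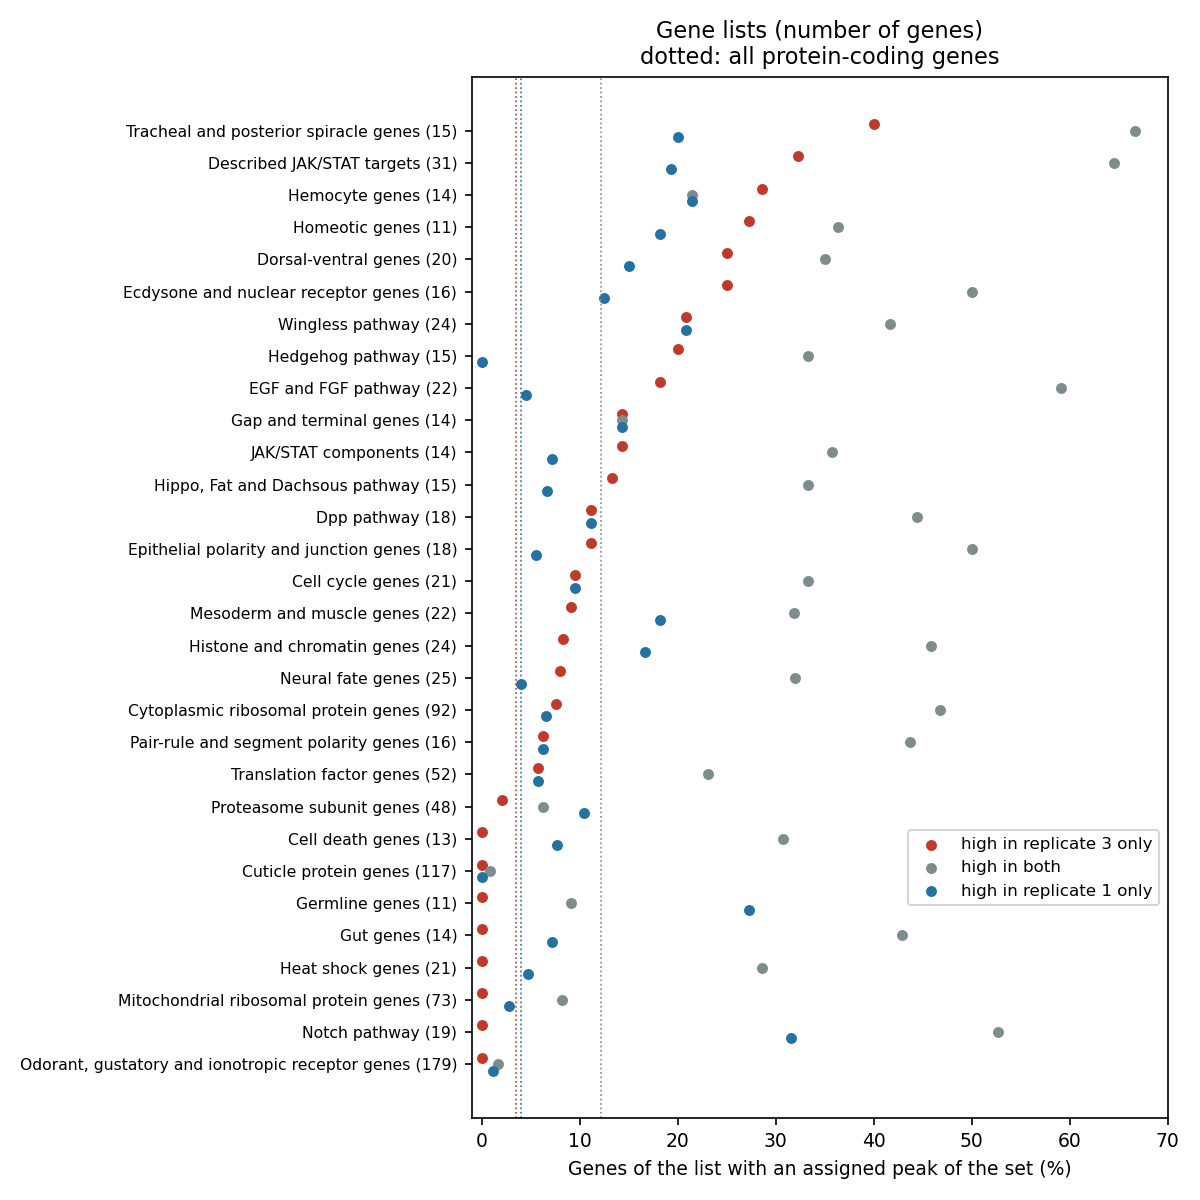
Share of the genes of each list (%) with an assigned peak high in replicate 3 only (red), both (grey) or replicate 1 only (blue), with the number of genes in brackets and dotted lines at the shares of all protein-coding genes (3.54%, 12.2% and 4.06%). Tracheal and posterior spiracle genes lie furthest right for the replicate-3-only peaks at 40%, and 8 lists had no gene with such a peak.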

How the data were processed

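Per the file lists deposited beside each sample, the authors called peaks on dm6. Each replicate list (30000 peaks) was made from that replicate's alignments and a shared control, a pooled list from both replicates, and the reproducible (IDR-thresholded) list of 3603 peaks from these lists. Not given in the sources used here are the aligner, the peak caller and the IDR threshold. The deposited signal is a score of the peak caller without a stated unit and was used only to rank peaks within a list. The deposited -log10 q-value took 1 value throughout the reproducible list and was used only as an alternative ranking of the replicate lists.

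From these lists, peaks were ranked, joined by overlap of 1 bp or more, and sorted into sets. Summits were placed against TSSs, introns and genes of the Ensembl annotation BDGP6.54.115, whose build matched dm6. Motifs were counted in 101 bp summit windows and in control windows 1 kb to a seeded side. Shares have exact (Clopper-Pearson) and differences Newcombe 95% intervals, which cover counting error only, since peaks are not replicates. Tools were Python 3.11.15, numpy 2.4.6, pandas 2.3.3, scipy 1.17.1, statsmodels 0.14.6 and matplotlib 3.10.9, and the scripts were tested on simulated data. Of 1011 entries in 30 gene lists, 994 matched the annotation.

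The members, gene lists and motifs were chosen with earlier results of these data known. Named genes were those of the 10 best replicate 3 ranks, of members with the worst or no replicate 1 rank, of peaks beside the thresholds, up to 4 per gene list by pooled rank, those with TTCCNGGAA, and genes with 3 members. Others in the text were added as remaining members of a list or as sequence examples. Alternatives changed the overlap, threshold, ranking column, peak set, promoter window, TSS set, motif window and gene assignment, and left out each replicate.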

Additional observations from a re-analysis of the deposited data

How the results depend on the processing

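The lower promoter share and the higher intron share of the replicate-3-only peaks against the replicate-1-only peaks kept their direction, with intervals that excluded 0, under most settings. The exceptions were the promoter difference at 2 times the rank threshold (-8.28 points), among pooled ranks of 1801 or better (-6.09) and where the other replicate had to be worse than 2 times the threshold (-11.3), and the intron difference among pooled ranks of 1801 or better, which reversed to -1.37. Against the peaks high in both, the promoter difference came to exclude 0 with 50% reciprocal overlap (-5.43) and among pooled ranks worse than 1801 (-6.61), while it was positive, with intervals that held 0, with summits within 100 bp (1.70), at 0.5 and 2 times the threshold (1.77 and 6.47) and with the wider gap (3.45). The intron difference from them was 0.733 points with summits within 100 bp, 0.471 at 0.5 times the threshold, 3.74 with promoters of 0.25 kb and 1.82 with the wider gap between replicates, all with intervals that held 0, and it reversed to -0.405 at 2 times the threshold and to -7.13 among pooled ranks of 1801 or better. The difference in TTCNNNGAA was -2.56 with reciprocal overlap, -4.31 at 2 times the threshold, -1.62 with windows of 25 bp to each side, -2.39 when ranked by -log10 q and -6.20 with the wider gap, again with intervals that held 0, and reversed to 0.989 among pooled ranks worse than 1801. The cause of these changes was not tested.

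The number of members was 87 at 2 times the threshold, 34 among pooled ranks of 1801 or better, 243 when ranked by -log10 q, and 613 to 2910 when 1 replicate was left out. Their promoter share was 71.3% at 2 times the threshold, 56.0% and 51.9% with promoters of 0.5 and 0.25 kb, 66.4% with TSSs of all genes and 67.9% with the wider gap. Their intron share was 20.7% at 2 times the threshold, 14.7% among pooled ranks of 1801 or better and 31.5% with promoters of 0.25 kb. Their TTCNNNGAA share was 3.21% and 11.5% with windows of 25 and 100 bp to each side, 3.85% with the wider gap, and 0% of 34 peaks among pooled ranks of 1801 or better, where 3 counts would be 8.82% and the exact 95% interval reaches 10.3%. With replicate 1 left out, the 2910 peaks high in replicate 3 remained, the members together with the peaks high in both. With replicate 3 left out, 613 remained, the members together with the peaks high in neither. In these mixed sets the promoter shares were 64.0 and 62.5%, the intron shares 22.1 and 24.5% and the TTCNNNGAA shares 9.24 and 6.36%, in that order. Giving a peak to every gene within 5 kb raised the genes with a member to 1353. Under the same assignment 17 of the 30 gene-list counts moved by over 1.5 times. On the other side of the summit, 2.83% of the control windows held TTCNNNGAA.

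No paired analysis was possible because there was 1 group. A ranking by the p-value column was not run, since it holds no values, and set differences were not run without a replicate, since the sets then merge. The ranking by -log10 q, the split by pooled rank and the wider gap were chosen after seeing the data. Unknown read depth limits all shares.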

Other observations

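Of the 22 members with no overlapping peak in replicate 1, 9 stood better in the pooled list than in replicate 3, against 55 of the 508 members with a replicate 1 peak. Among the 9 without a replicate 1 peak, cu had a pooled rank of 29 and a replicate 3 rank of 51. Elp5 had 673 and 1053, CG8679 had 1538 and 2157, and CG17065 had 1773 and 2674. Of the 22, 4 were narrower than 470 bp. Ino80, with a replicate 3 rank of 2059 and a replicate 1 rank of 11662, had a pooled rank of 1230 in a peak of 149 bp and 20.8% GC. The sources used here give no read counts at these positions, and the reason was not tested.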
